A study of Mus musculus with 6 samples.

Results

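Zinc-dependent proteases that cut matrix and cell surface proteins, and their tissue inhibitors, were examined in heart RNA of 3 young and 3 old mice. The genes were all those in the deposited count table whose symbol is Mmp, Timp, Adam, Adamts or Adamtsl followed by a number and at most 1 letter, which gave 64 of the 18005 listed genes. They comprise 17 matrix metalloproteinase (Mmp) genes, 4 tissue inhibitor (Timp) genes, 20 Adam genes, 18 Adamts genes and 5 Adamtsl genes. Of these, 55 had at least 10 counts summed over the 6 libraries and 9 had fewer. All 6 animals are labelled wild type and untreated, and differ in the labels only by the group, young or old. Age in months, strain and sex are not in the labels, and the title of the series speaks of cardiac hypertrophy with age. The libraries were made from polyadenylated RNA of whole heart tissue, so that fewer cells of a type and less RNA per cell cannot be told apart. Mice are numbered 1 to 3 within a group and were taken as separate animals on the titles alone. The p-values set the difference between the groups against the spread of these 6 samples within their groups.

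Matrix metalloproteinases degrade collagens, gelatin and other matrix proteins, and are secreted or held at the cell membrane. ADAM proteins are membrane proteins of which the active ones release the outer parts of growth factors, cytokines and receptors. ADAMTS proteases are secreted, and cut the proteoglycan versican, procollagens and proteins of microfibrils, while the ADAMTS-like proteins share their non-catalytic domains and have no protease domain. TIMPs bind and block these enzymes, and TIMP3, which stays bound to the matrix, inhibits ADAM17 and several ADAMTS enzymes as well as MMPs. In the heart these families take part in the turnover of the matrix between myocytes, in valve development and in remodelling after injury.

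Library totals were 11295280 to 12514005 counts, and no pair of libraries of a group agreed within counting error (chi-square per degree of freedom 7.9 to 16.7). Summed over 10 cardiomyocyte markers, all detected, the level was 80566 to 84410 CPM (counts scaled to a common library total with TMM factors) in young and 94638 to 98847 CPM in old libraries, so the tissue label held in each. This sum did not overlap between the groups. Of the 10 genes, 3 were called higher (Tnni3, Actc1 and Atp2a2), 1 lower (Ttn) and 6 were not called. The mean of Actc1 went from 8207 CPM in young to 17340 CPM in old hearts, and weighs heavily in the sum. The part of this sum in the values below was not tested. Fibroblast markers (10 of 10 tested) summed to 3885 to 4213 CPM in young and 3889 to 4780 CPM in old hearts. Of these, Lum was called higher and Tcf21 lower. Macrophage markers summed to 917 to 1016 CPM in young and 997 to 1257 CPM in old hearts, with 3 of 10 called higher. Smooth muscle and pericyte markers summed to 1832 to 2063 CPM in young and 1933 to 2162 CPM in old hearts. Of these 11 genes, 5 were called higher (Acta2, Tagln, Cnn1, Smtn and Myocd) and 2 lower (Pdgfrb and Notch3). Among all genes tested, 11.4% were called higher and 10.6% lower. Neutrophil markers were low (10.3 to 19.8 CPM in young, 9.59 to 11.6 CPM in old hearts, Elane at 0 in all), as were testis markers (1.93 to 2.74 CPM in young, 1.99 to 2.74 CPM in old hearts, Tnp1 and Acrv1 at 0).

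Of the 46 members with enough counts to be tested, 4 were called higher and 4 lower in old hearts. A gene was called where edgeR's quasi-likelihood test gave an adjusted p under 0.05, with Benjamini-Hochberg adjustment over all 12893 genes tested. Members were thus called in 17.4% of cases, against 22.0% of all genes tested, 11.4% higher and 10.6% lower, so that calls were no more frequent among them than among genes at large. The 4 higher genes were Timp1, Timp3, Adamts1 and Adamts9, and the 4 lower genes were Mmp13, Mmp28, Adam19 and Adamts15. Among the other 38 members the log2 fold changes of old over young lay between -0.51 and 0.58. The median log2 fold change was 0.06 over the 46 members and -0.01 over all genes tested. With library size as the only scaling, 4 members were called higher and 8 lower, and over all genes the share of calls that were higher was 32.7%, against 51.7% with TMM and 40.2% with upper-quartile factors. The groups did not overlap for 15 members, 9 higher and 6 lower, where 39.9% of all genes tested did not overlap, 19.6% higher and 20.3% lower.

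**Figure D1:**
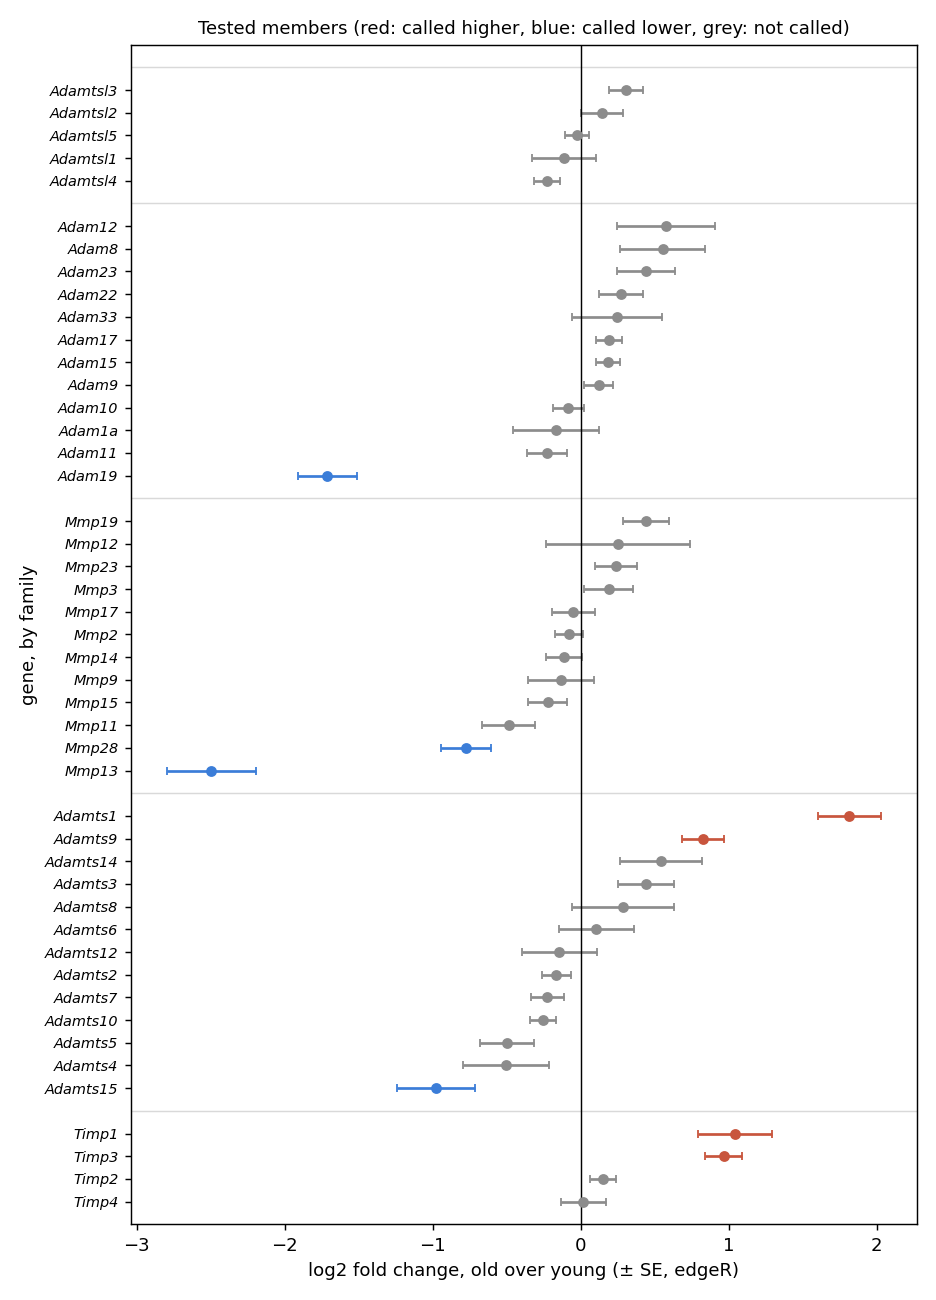
Log2 fold change of old over young (x axis, ± SE, edgeR) for the 46 tested members, grouped by family on the y axis; red marks the 4 called higher, blue the 4 called lower and grey the 38 not called. Mmp13 at -2.50 and Adamts1 at 1.81 lie farthest from 0, and the 5 Adamtsl genes lie closest together.

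Upstream sequences are shown for the members with the greatest fall (Mmp13) and rise (Adamts1) and for the most abundant member that rose (Timp3). They are the 250 bases before the RefSeq gene start, on the GRCm38.p6 build, an older build than the GRCm39 of the submitters' processing notes. Capitals mark matches to any of 5 motifs searched on both strands, none of which holds another. The AP-1 motif was written TGANTCA. The cAMP response element was TGACGTCA. The E-box was CACGTG. The core of the heat shock element was GAANNTTC. The TATA box was TATAAA. The Mmp13 sequence is at chr9:7272264-7272513, strand +, that of Adamts1 at chr16:85803114-85803363, strand - and that of Timp3 at chr10:86300162-86300411, strand +.
Mmp13: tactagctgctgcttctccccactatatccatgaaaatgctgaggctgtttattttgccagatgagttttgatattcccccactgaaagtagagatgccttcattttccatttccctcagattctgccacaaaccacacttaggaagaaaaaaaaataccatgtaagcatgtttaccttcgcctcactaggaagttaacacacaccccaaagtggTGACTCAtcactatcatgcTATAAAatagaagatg
Adamts1: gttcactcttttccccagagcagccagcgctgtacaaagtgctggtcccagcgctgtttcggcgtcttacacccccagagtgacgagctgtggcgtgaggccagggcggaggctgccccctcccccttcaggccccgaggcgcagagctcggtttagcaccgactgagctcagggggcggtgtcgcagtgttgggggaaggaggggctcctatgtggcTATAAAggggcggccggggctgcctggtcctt
Timp3: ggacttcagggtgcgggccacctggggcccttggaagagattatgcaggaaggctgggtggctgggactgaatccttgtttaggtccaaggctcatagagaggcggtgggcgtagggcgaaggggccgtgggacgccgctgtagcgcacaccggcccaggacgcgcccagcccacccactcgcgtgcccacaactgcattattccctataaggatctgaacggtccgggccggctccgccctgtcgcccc
The Mmp13 sequence held TGACTCA at -35 to -29 and TATAAA at -16 to -11 from the listed start. Adamts1 held TATAAA at -32 to -27, and Timp3 held no match to these letters. Of the 8 called members, 7 had an entry, and Adam19 had 3 starts listed, of which 1 held an AP-1 match and another an E-box match. The windows of Adamts9, Mmp28 and Timp1 held none of the letters searched. Over all 32851 windows in the table, 6.75% held the AP-1 letters, 1.55% the cAMP response element, 6.02% the E-box, 6.69% the heat shock core and 12.4% the TATA box. Guanine and cytosine made up 40.4% of the Mmp13 window, 65.6% of the Adamts1 window and 65.6% of the Timp3 window, with a median of 52.4% over the table.

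The inhibitors were led by Timp3, whose level was 1.95-fold higher in old hearts. Timp3 stood at 304, 323 and 298 CPM in young mice 1 to 3 and at 657, 682 and 466 CPM in old mice 1 to 3. The groups did not overlap, and old 3 was the lowest of the old libraries. Means were 308 ± 12.8 CPM for young mice against 602 ± 118 CPM for old mice (SD, n = 3), which is 0.96 ± 0.13 on the log2 scale (± SE throughout, edgeR adjusted p = 0.00034). The call held whichever library was left out. Timp1, an inhibitor that many cells secrete on injury, was far less abundant, at 37, 22 and 23 counts in young and 43, 66 and 48 counts in old libraries. This corresponds to 2.89, 1.93 and 1.78 CPM in young and 3.81, 5.70 and 4.16 CPM in old hearts, with no overlap between the groups. Its log2 fold change was 1.04 ± 0.25 (edgeR adjusted p = 0.013), and the call was lost without young 3 (adjusted p = 0.068).

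Timp2 and Timp4 did not pass the test. Timp2, which takes part in the activation of MMP2 at the cell surface, was at 221, 194 and 211 CPM in young and 232, 218 and 244 CPM in old hearts. The groups overlapped narrowly, and the log2 fold change was 0.15 ± 0.09 (edgeR adjusted p = 0.23). Timp4, the inhibitor known for its high level in heart, was at 70.9, 92.7 and 75.2 CPM in young and 100.1, 79.1 and 62.4 CPM in old hearts (log2 fold change 0.02 ± 0.15, edgeR adjusted p = 0.95). Its old libraries spanned the whole range of the young ones.

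Per length, Timp3 and Timp2 were the most abundant of all 64 genes. In FPKM (counts per gene length and library total), the level of Timp3 was 67.7 ± 1.86 for young mice against 124.7 ± 22.9 for old mice (SD, n = 3). The FPKM level of Timp2 was 59.1 ± 4.85 in young and 62.1 ± 4.46 in old hearts, that of Timp4 27.7 ± 3.52 and 26.6 ± 6.15, and that of Timp1 2.56 ± 0.731 and 4.99 ± 1.03. The order of these levels was the same in both groups. Timp3 lay above Timp2 by more than the SD of either gene in both groups. All the inhibitors summed to 159.7, 157.3 and 154.3 FPKM in young and 236.4, 228.4 and 190.3 FPKM in old libraries. Timp3 made up 43.1% of this sum on average in young and 56.8% in old hearts. The summed FPKM of Timp genes over that of Mmp genes was 1.46, 1.70 and 1.45 in young and 2.81, 2.76 and 1.90 in old libraries, without overlap. The same ratio of Timp to Adamts genes overlapped, at 3.95, 3.75 and 3.36 in young and 3.87, 3.86 and 2.41 in old libraries. These sums describe transcripts and not the amounts of inhibitor and enzyme.

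**Figure D2:**
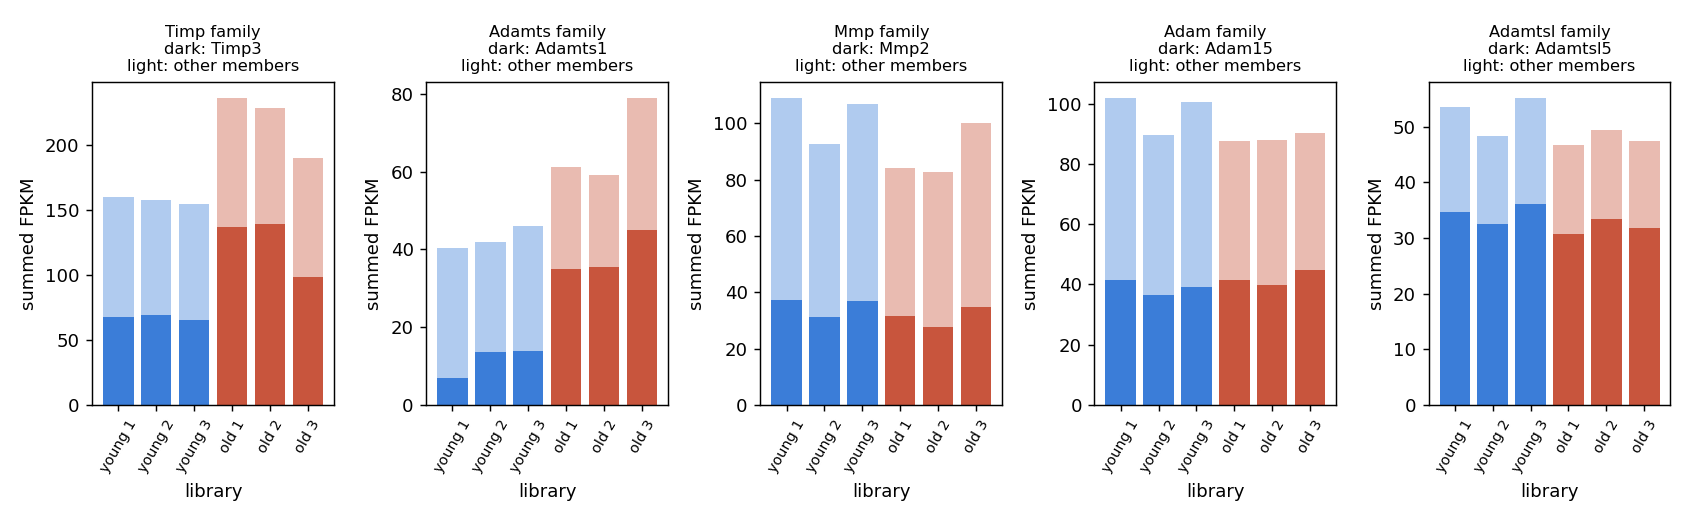
Summed FPKM of each family (y axis, per gene length and library total) in each of the 6 libraries (x axis, blue young, red old), with the most abundant member dark and the others light. The Timp and Adamts sums of the 3 old libraries stand above every young library, while the light parts of both change little.

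Among ADAMTS proteases, members that cut versican went in opposite directions. Adamts1, an inducible secreted protease of versican and aggrecan, was 3.52-fold higher in old hearts. It stood at 32.7, 66.2 and 65.6 CPM in young and 175, 181 and 223 CPM in old mice. Young 1 was lower than the other young libraries, and every old library lay above every young one. Means were 54.9 ± 19.2 CPM for young mice against 193 ± 26.1 CPM for old mice (SD, n = 3), a difference of 1.81 ± 0.21 on the log2 scale (edgeR adjusted p = 0.00015). Without young 1 the fold change was 1.55 on the log2 scale and remained called.

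Adamts9, a widely expressed protease of versican, was at 33.6, 28.0 and 33.4 CPM in young and 56.4, 43.6 and 68.7 CPM in old hearts. The groups did not overlap, and old 3 was the highest library. The log2 fold change was 0.83 ± 0.14 (edgeR adjusted p = 0.0021), called whichever library was left out but not on FPKM values with no filter (adjusted p = 0.053). Adamts15, another versican protease, moved the other way, from 9.84, 10.8 and 11.8 CPM in young to 3.81, 3.80 and 8.84 CPM in old hearts. Old 3 lay just under the lowest young library, while old 1 and old 2 were far below. Its log2 fold change was -0.98 ± 0.26 (edgeR adjusted p = 0.021), a call lost without young 2, young 3, old 1 or old 2. It was also lost on FPKM values with no filter (adjusted p = 0.0584). Without old 3 its log2 fold change was -1.49.

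The aggrecanases Adamts5 and Adamts4 showed the same arrangement of libraries and did not pass the test. Adamts5 stood at 54.3, 49.0 and 48.6 CPM in young and 31.7, 25.8 and 50.2 CPM in old hearts, so that old 1 and old 2 lay below all young libraries and old 3 among them. The log2 fold change was -0.50 ± 0.18 (edgeR adjusted p = 0.072), and without old 3 it was -0.81 with an adjusted p of 0.000206. With any other library left out Adamts5 was not called (edgeR adjusted p = 0.124 to 0.206). DESeq2 called it with all 6 libraries (adjusted p = 0.0307), as did limma-voom (adjusted p = 0.0467). Library size alone, no filter and a replicate block also called it. RLE factors, upper-quartile factors, a minimum of 1 CPM in 3 libraries and log2 FPKM did not. Adamts4 stood at 4.68, 4.66 and 5.03 CPM in young and 3.36, 1.73 and 5.03 CPM in old hearts (log2 fold change -0.51 ± 0.29, edgeR adjusted p = 0.23). Without old 3 it was -0.90 with an adjusted p of 0.029, and with any other library left out Adamts4 was not called (edgeR adjusted p = 0.305 to 0.602). Adamts1 and Adamts5 are direct neighbours among protein-coding genes in the RefSeq table of GRCm38.p6, and their fold changes thus had opposite signs. Adamts15 likewise lies next to Adamts8, which was at 1.04 ± 0.384 CPM in young and 1.28 ± 0.174 CPM in old hearts and was not called (edgeR adjusted p = 0.59).

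The remaining ADAMTS genes were not called. The procollagen N-proteinases Adamts2, Adamts3 and Adamts14, which remove the amino-terminal propeptides of fibrillar procollagens, had log2 fold changes of -0.17 ± 0.10, 0.44 ± 0.19 and 0.54 ± 0.28 (edgeR adjusted p = 0.26, 0.11 and 0.18). Adamts3 stood at 3.90, 3.34 and 3.95 CPM in young and 4.25, 5.79 and 5.20 CPM in old hearts, without overlap but at low counts. Adamts10, whose product binds fibrillin microfibrils, was at 46.1, 41.2 and 45.2 CPM in young and 34.9, 35.6 and 40.6 CPM in old hearts. Its groups did not overlap, and its log2 fold change of -0.26 ± 0.09 missed the threshold (edgeR adjusted p = 0.059). Adamts10 passed with upper-quartile factors, library size alone or log2 FPKM of genes with a mean of at least 1 FPKM. It did not pass with RLE factors, limma-voom, DESeq2 or log2 FPKM with no filter. Adamts7, a protease of cartilage oligomeric matrix protein, had a log2 difference of -0.23 ± 0.11 (edgeR adjusted p = 0.18), and the related Adamts12 one of -0.14 ± 0.26 (edgeR adjusted p = 0.72). Adamts6 stood at 0.11 ± 0.25 on the log2 scale (edgeR adjusted p = 0.79).

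Per length, Adamts1 was the leading ADAMTS transcript in both groups, at 11.5 ± 3.92 FPKM in young and 38.4 ± 5.74 FPKM in old hearts. Adamts10 followed at 8.81 ± 0.664 and 6.99 ± 0.679 FPKM, a level within the SD of Adamts1 in young hearts. In young hearts Adamts5 (6.32 ± 0.481 FPKM) lay above Adamts9 (4.04 ± 0.467 FPKM) and in old hearts below it (4.25 ± 1.58 against 6.80 ± 1.63 FPKM). The 18 Adamts genes summed to 40.4, 42.0 and 45.9 FPKM in young and 61.1, 59.2 and 79.0 FPKM in old libraries. Adamts1 made up 26.7% of that sum in young and 57.9% in old hearts. Without Adamts1 the difference between the group means of the sum went from 23.7 FPKM higher in old hearts to -3.26 FPKM, that is, lower.

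**Figure D3:**
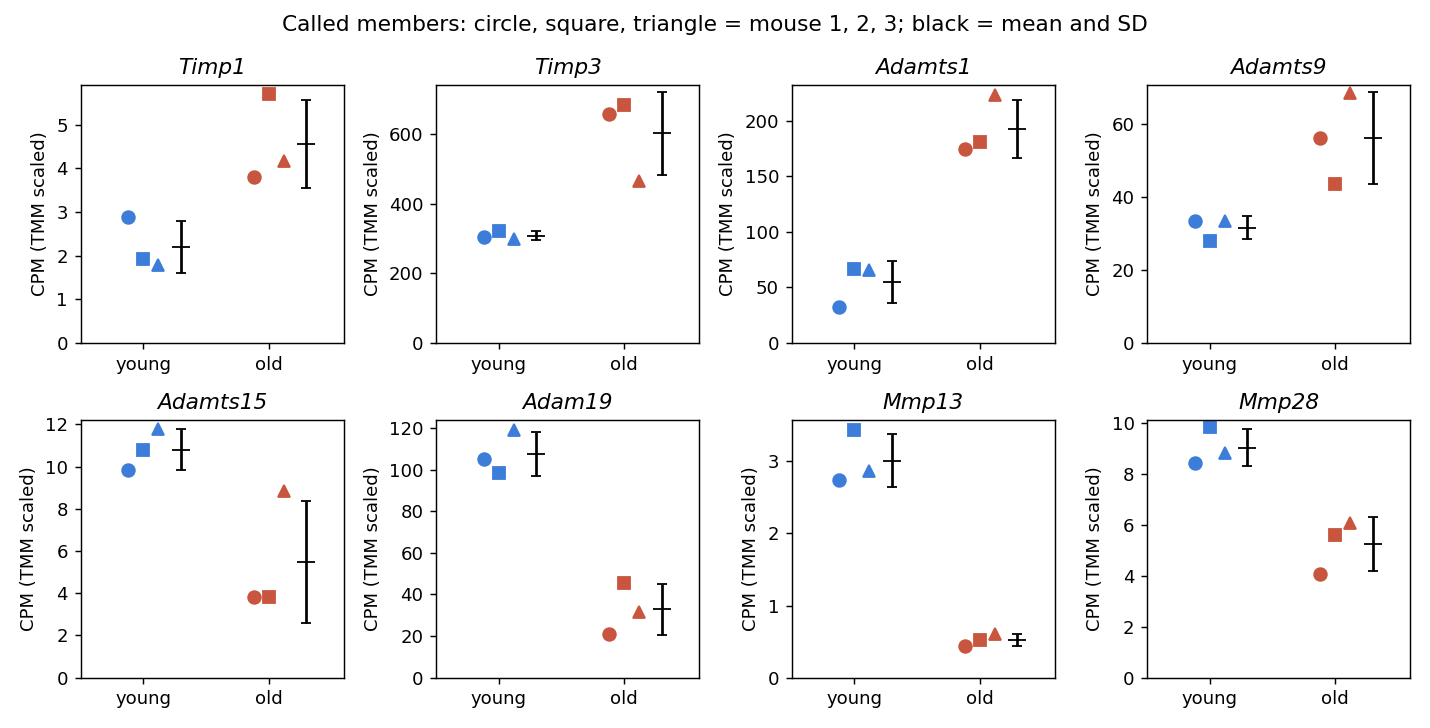
Level in CPM (y axes, linear from 0, TMM scaled) of the 8 called members in each library of the young (blue) and old (red) groups; circle, square and triangle are mice 1, 2 and 3, and black bars give mean and SD. No old point overlaps the young points in any panel, and in the Adamts15 panel old 3 lies at 8.84 CPM, close to young 1 at 9.84 CPM.

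Among matrix metalloproteinases the gelatinases and membrane-type enzymes that made up most of the transcripts were not called, and both called genes fell. Mmp13, an interstitial collagenase, had 35, 39 and 37 counts in young and 5, 6 and 7 counts in old libraries. This is 2.73, 3.43 and 2.86 CPM against 0.443, 0.518 and 0.607 CPM, so that every old library lay far below the lowest young one. The log2 fold change was -2.50 ± 0.30 (edgeR adjusted p = 0.00018), and the call held whichever library was left out. Its mean FPKM was under the filter of 1 FPKM. On log2(FPKM + 1) with no filter it was called at -0.85 ± 0.06 (limma adjusted p = 0.00128), a scale that understates changes of low genes. Its neighbour Mmp12, macrophage elastase, stood at 1.25, 3.95 and 1.08 CPM in young and 1.42, 3.89 and 1.99 CPM in old hearts, with 1 high library in each group (log2 fold change 0.25 ± 0.49, edgeR adjusted p = 0.75).

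Mmp28, or epilysin, a secreted enzyme of epithelia and macrophages, stood at 8.43, 9.84 and 8.82 CPM in young and 4.07, 5.62 and 6.07 CPM in old hearts. All old libraries lay below all young ones. The log2 fold change was -0.78 ± 0.17 (edgeR adjusted p = 0.0077), called whichever library was left out. Mmp11, stromelysin 3, which is activated inside the cell by furin, was at 11.7, 10.4 and 11.6 CPM in young and 6.64, 6.74 and 10.7 CPM in old hearts. Here too old 3 fell among the young libraries. Its log2 fold change was -0.49 ± 0.18 (edgeR adjusted p = 0.07), and the gene was called lower without old 3.

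Mmp2, gelatinase A, stood at 114.4, 99.2 and 114.2 CPM in young and 103.6, 93.1 and 113.4 CPM in old hearts, with overlapping groups (log2 fold change -0.08 ± 0.10, edgeR adjusted p = 0.58). Mmp14, the membrane-type enzyme that activates MMP2, was at 47.6, 38.7 and 48.0 CPM in young and 40.0, 35.6 and 48.7 CPM in old hearts (log2 fold change -0.11 ± 0.12, edgeR adjusted p = 0.54). Mmp2, Mmp14 and Timp2, whose products meet in the activation of pro-MMP2, were therefore all uncalled. Mmp15, also membrane-type, had a log2 difference of -0.22 ± 0.13 (edgeR adjusted p = 0.24). Mmp9, gelatinase B, was at 5.47, 6.33 and 5.11 CPM in young and 6.82, 3.46 and 5.11 CPM in old hearts (log2 fold change -0.13 ± 0.23, edgeR adjusted p = 0.7). Mmp3, stromelysin 1, was at 9.14, 8.17 and 6.27 CPM in young and 8.68, 10.02 and 8.15 CPM in old hearts (log2 fold change 0.19 ± 0.16, edgeR adjusted p = 0.44).

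Mmp19 was the only tested matrix metalloproteinase whose old libraries all lay above the young ones, at 4.61, 4.74 and 4.64 CPM in young and 6.64, 6.22 and 6.15 CPM in old hearts. The spread within each group was small. Its log2 fold change of 0.44 ± 0.15 missed the threshold (edgeR adjusted p = 0.058). Mmp17 and Mmp23 had log2 fold changes of -0.05 ± 0.15 and 0.24 ± 0.14 (edgeR adjusted p = 0.83 and 0.25). Per length, Mmp2 (35.1 ± 3.35 FPKM in young, 31.4 ± 3.60 in old hearts) and Mmp15 (31.6 ± 4.32 and 25.6 ± 4.72 FPKM) led the family. In young hearts the pair lay within an SD of each other, and in old hearts Mmp2 lay above Mmp15 by more than the SD of either gene. Mmp14 came next at 12.1 ± 1.61 and 10.6 ± 1.88 FPKM. The 17 genes summed to 109.1, 92.8 and 106.7 FPKM in young and 84.1, 82.9 and 100.2 FPKM in old libraries, which overlapped.

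In the Adam family 1 gene was called. Adam19, a membrane protease known for its part in the development of heart valves and septa and able to release neuregulin, was 3.28-fold lower in old hearts. It stood at 105, 98.3 and 119 CPM in young and 21.1, 45.5 and 31.7 CPM in old mice. The old libraries spread more than the young ones but lay far below them. Means were 107 ± 10.6 CPM for young mice against 32.8 ± 12.3 CPM for old mice (SD, n = 3), or -1.71 ± 0.20 on the log2 scale (edgeR adjusted p = 0.00015). The call held whichever library was left out, with fold changes of -2.02 to -1.47 on the log2 scale.

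The main sheddases were not called. Adam10, the protease that starts Notch cleavage, was at 65.2, 57.3 and 57.7 CPM in young and 62.4, 48.2 and 59.5 CPM in old hearts (log2 fold change -0.08 ± 0.10, edgeR adjusted p = 0.6). Adam17, which releases tumour necrosis factor, was at 35.7, 30.9 and 35.5 CPM in young and 38.0, 41.7 and 36.9 CPM in old hearts. All old libraries lay above the young ones, by less than the test could call (log2 fold change 0.19 ± 0.09, edgeR adjusted p = 0.15). Adam15 likewise did not overlap, at 120, 109 and 114 CPM in young and 128, 125 and 137 CPM in old hearts (log2 fold change 0.18 ± 0.08, edgeR adjusted p = 0.13). Adam9 had a log2 difference of 0.12 ± 0.10 (edgeR adjusted p = 0.4).

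Among less abundant Adam genes, Adam8, a gene of leukocytes, was at 1.77 ± 0.538 CPM in young and 2.59 ± 0.566 CPM in old hearts (log2 fold change 0.55 ± 0.29, edgeR adjusted p = 0.19). Adam12 had 1.80, 1.32 and 1.32 CPM in young and 3.19, 2.07 and 1.39 CPM in old hearts, with old 1 well above the others (log2 fold change 0.58 ± 0.33, edgeR adjusted p = 0.24). The non-catalytic Adam11, Adam22 and Adam23, best known from the nervous system, had log2 fold changes of -0.23 ± 0.14, 0.27 ± 0.15 and 0.44 ± 0.20 (edgeR adjusted p = 0.25, 0.21 and 0.13). Adam33 and Adam1a were at 0.24 ± 0.31 and -0.17 ± 0.29 on the log2 scale. Per length, Adam15 led the family at 39.2 ± 2.48 FPKM in young and 42.1 ± 2.59 FPKM in old hearts. In young hearts Adam19 (15.6 ± 1.69 FPKM), Adam9 (14.4 ± 1.28 FPKM) and Adam10 (13.03 ± 1.15 FPKM) followed, the first and second of these within an SD of each other. In old hearts Adam19 (4.49 ± 1.62 FPKM) lay below Adam9, Adam10 and Adam17. The 20 genes summed to 97.3 ± 6.85 FPKM in young and 88.5 ± 1.54 FPKM in old hearts.

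None of the 5 ADAMTS-like genes was called by edgeR with TMM factors and all 6 libraries. In that fit 2 had an unadjusted p under 0.05, as did 4642 of all 12893 genes tested. Those were Adamtsl3, at 10.9, 10.4 and 9.83 CPM in young and 13.6, 12.6 and 12.1 CPM in old hearts (log2 fold change 0.31 ± 0.12, edgeR adjusted p = 0.078), and Adamtsl4. Adamtsl4, whose product binds fibrillin microfibrils, was at 49.7, 44.9 and 53.1 CPM in young and 40.0, 43.5 and 42.6 CPM in old hearts (log2 fold change -0.23 ± 0.09, edgeR adjusted p = 0.079). Both had groups that did not overlap. DESeq2 and limma-voom called none of the 5, while upper-quartile factors, library size alone and log2 FPKM of genes with a mean of at least 1 FPKM called Adamtsl4 lower. Adamtsl5 was the most abundant per length, at 34.5 ± 1.78 FPKM in young and 32.0 ± 1.30 FPKM in old hearts, with a log2 difference of -0.03 ± 0.08 (edgeR adjusted p = 0.83). Adamtsl2 and Adamtsl1 were at 0.14 ± 0.14 and -0.11 ± 0.22 on the log2 scale.

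A further 18 members had too few counts to be tested. Of these, 9 had at least 10 counts over the 6 libraries: the membrane-type Mmp16 (47 counts), Mmp24 (13) and Mmp25 (56), Mmp27 (16), the neutrophil collagenase Mmp8 (17), Adam5 (16), Adamts17 (53), Adamts19 (35) and Adamts20 (33). The other 9 had 0 to 8 counts. They were Adam32 (8), Adam4 (7), Adam2 and Adam21 (4 each), Adam1b, Adam3 and Adam18 (1 each), Adamts18 (3) and Adamts13 (0), the protease of von Willebrand factor. Most of these Adam genes are known from testis and sperm.

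Libraries of the same group were not alike for these genes, in young as in old mice. Of the 46 tested members, 23 were highest among the old libraries in old 3, where this held for 36.7% of all genes tested. In old 1, 21 members (45.7%) were lowest, against 30.1% of all genes. Among young libraries 22 members (47.8%) were highest in young 1, against 28.8% of all genes. In young 2, 26 members (56.5%) were lowest, against 38.6% of all genes. These departures from the shares of all genes were no smaller in the young group than in the old group. Over all genes, calls in either direction numbered 2835 with all 6 libraries and 3041 without old 3. Without old 3, 9 members were called lower in place of 4, and Adamts4, Adamts5, Adamts7, Adamts10 and Mmp11 were the 5 gained. In each of these genes old 3 lay nearer to the young libraries than old 1 and old 2 did. Endothelial markers showed a like order, with 10 of 10 tested, 1 called higher and 2 lower, and a summed level of 2579, 2276 and 2493 CPM in young and 1943, 2000 and 2474 CPM in old libraries. Fibroblast markers were also highest in old 3, at 4780 CPM against 3889 and 3995 CPM. Macrophage markers ran the other way, at 1257, 1122 and 997 CPM in old 1, old 2 and old 3. The cardiomyocyte, endocardial and smooth muscle sums were highest in old 2. The part of these cell types in the values of these proteases was not tested.

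**Figure D4:**
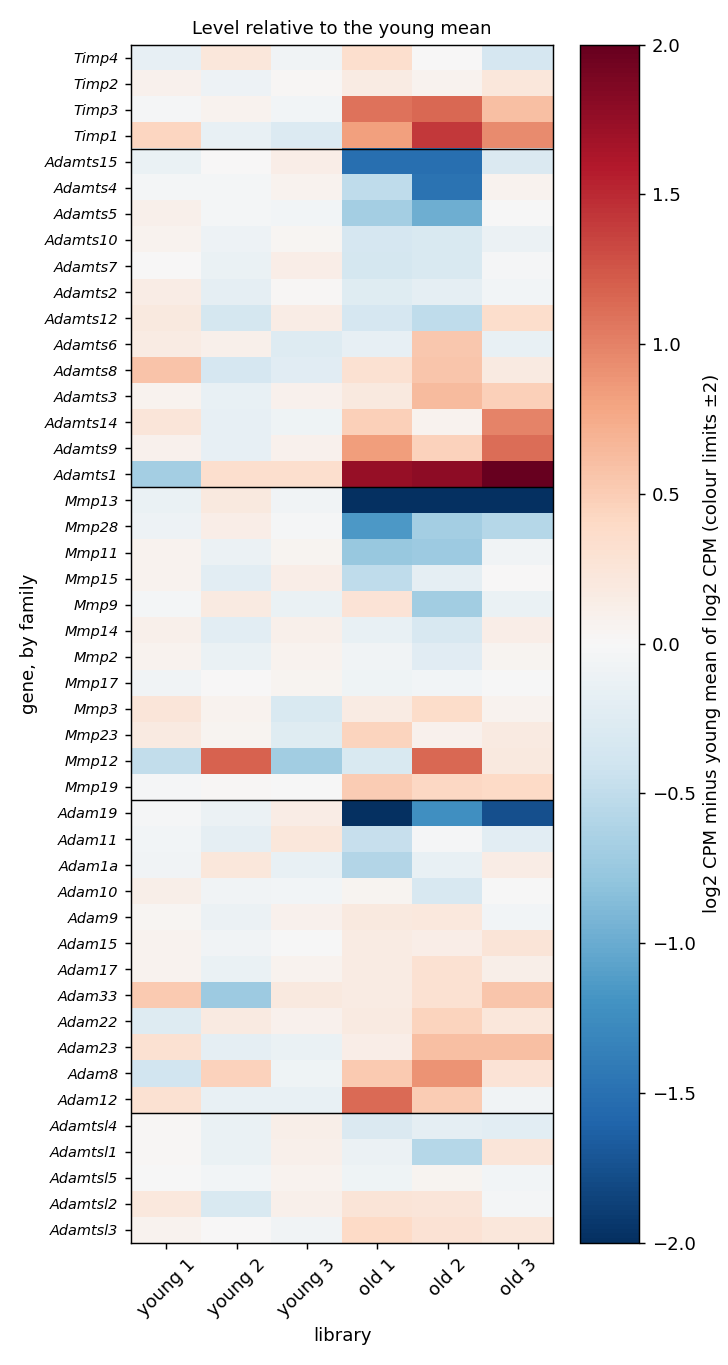
Log2 CPM of each tested member (rows, by family) minus its mean over the young libraries, for the 6 libraries (columns); red is above and blue below the young mean, with colours limited at 2 in either direction. In the Adamts4, Adamts5, Adamts15 and Mmp11 rows old 1 and old 2 are blue and old 3 is much paler, whereas the Adamts1, Timp3, Mmp13 and Adam19 rows keep their colour in all 3 old libraries.

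Genes that act beside these proteases were taken from lists of the plasminogen system, enzyme activators, other inhibitors, ADAM regulators and substrates. The calls in these lists stand beside 11.4% of all genes tested called higher and 10.6% called lower. In the plasminogen activator system, which makes the plasmin that can activate several MMPs, 3 of 8 tested genes rose and 0 fell. Among them, the urokinase receptor gene Plaur rose from 3.41 ± 0.367 to 12.7 ± 3.17 CPM (1.89 ± 0.20 on the log2 scale, edgeR adjusted p = 8e-05). Serpine2, an inhibitor gene of this system, rose by 0.38 ± 0.09, a call lost without young 3. The counts of this list take activators and inhibitors together, and the amount of plasmin was not measured. Of 9 tested convertases, astacins and activators, 1 rose, Pcolce, an enhancer of procollagen processing (0.38 ± 0.12), and this call held in 1 of 6 fits with a library left out. Of 9 inhibitors other than TIMPs, Cst3, a cathepsin inhibitor, rose by 0.37 ± 0.08 and Sfrp2 fell by 1.67 on the log2 scale (SE 0.21).

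Of 12 tested regulators of ADAM10 and ADAM17, 3 rose and 2 fell. Rhbdf2, whose product carries ADAM17 to the cell surface, rose by 0.45 ± 0.11 on the log2 scale, and Tspan15, a tetraspanin that binds ADAM10, had -0.83 ± 0.12. Itga5 rose by 0.45 ± 0.09, and Pacs2, at -0.45 ± 0.11, lost its call without young 3. Of 26 membrane proteins shed by ADAMs, 3 rose and 3 fell, among them Hbegf (0.80 ± 0.14), Mertk (0.83 ± 0.15), Tek (-0.50 ± 0.10) and Nrg1 (-2.39 ± 0.23). Without old 2, 6 rose, and without old 3, 6 fell. Nrg1 encodes neuregulin, a growth factor that ADAM19 can release, and it stood at 22.7 ± 0.917 CPM in young and 4.32 ± 2.18 CPM in old hearts.

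Among matrix substrates, 2 of 17 tested genes of hyalectans and other ADAMTS substrates passed the test upward and 1 downward, and 14 did not pass. None of the genes that passed is a hyalectan. Thbs1, encoding thrombospondin 1, rose by 2.76 ± 0.19 and Cspg4 was at -0.66 ± 0.14, while Lum (0.28 ± 0.09) kept its call in 1 of 6 fits with a library left out. Without old 3, 3 of these genes fell. Of 14 fibrillin microfibril genes, 2 rose and 2 fell. Ltbp2 rose by 0.76 ± 0.17 and Eln, elastin, had -1.22 ± 0.12, while Mfap5 (0.40 ± 0.11) and Fbn1 (-0.35 ± 0.10) each kept their call in 2 of the 6 fits. Of 18 collagens and laminins, 0 rose and 3 fell, namely Col3a1 (-0.66 ± 0.12), Col5a2 (-0.40 ± 0.09) and Lamb2 (-0.48 ± 0.11). Lamb2 lost its call without young 1, young 3 or old 1. Without young 2 or old 3, 5 of the 18 fell. The median log2 fold change was -0.12 for the microfibril list and -0.14 for the collagens and laminins, against -0.01 over all genes tested.

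Of 14 transcription factors and regulators known to act on collagenase and other protease genes, 8 were called higher and 4 lower. Their median was 0.90 on the log2 scale. Over all genes tested, 11.4% were called higher and 10.6% lower, and this list was chosen with earlier results of these data known. The AP-1 genes Fosl2 (1.87 ± 0.11), Fosb (4.09 ± 0.25) and Jund (1.02 ± 0.09) rose, and Etv5, an ETS factor, had -1.74 ± 0.11. The 8 rises held whichever library was left out, whereas the number called lower dropped from 4 to 1 when young 1, young 3 or old 1 was removed.

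Some values could include reads of other genes. In the GENCODE M21 annotation of GRCm38, 15 of the 46 tested members share exon sequence with another gene, mostly on the opposite strand. The strand setting of the counting is not given in the sources used here, so such reads cannot be told apart. Mmp11 shares exon sequence with Chchd10, which was at 837 CPM in young and 1061 CPM in old hearts, a log2 difference of 0.34 ± 0.09. Adamts4 is also among the 15. Of the called members, Adam19, Adamts9, Mmp28 and Timp3 have such a partner. Timp1, Timp3 and Timp4 lie inside the synapsin genes Syn1, Syn3 and Syn2 on the opposite strand, and these had 2 to 9, 5 to 14 and 32 to 80 counts a library, below the counts of the Timp gene in every library.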

How the data were processed

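RNA of whole hearts from 3 young and 3 old mice was sequenced with libraries from a stranded kit that selects polyadenylated RNA, per the labels' protocols. The authors deposited whole-number counts per gene and library, and FPKM values (per gene length and library total) in tables whose columns matched each of the 12 single-sample files. GRCm39, HISAT2, HTSeq, StringTie, Cufflinks, DESeq, Bowtie2 and Trimmomatic are named per the submitters' processing notes. Their roles and versions, and whether counting used strand, were not given in the sources used here. The test was edgeR 4.0.16 under R 4.3.3 (filterByExpr, TMM, quasi-likelihood F test, no covariate), with Benjamini-Hochberg adjustment over 12893 genes and an adjusted p under 0.05 as the call. On simulated data 10.1% of the calls were false, which is above that threshold. The smallest fold changes were the most often missed, with 68.0% of 1.5-fold changes recovered against 100.0% of 5-fold changes. Log2 fold changes set old over young, SEs come from the fold change and F statistic, and CPM and FPKM are given as mean ± SD with n = 3. FPKM values are not TMM scaled. 1 count corresponds to 0.0774 to 0.0885 CPM, which limits Mmp13, Timp1 and other low genes.

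Members, gene lists and tests were chosen with earlier results of these data known. Values are given in full for every called member and for the Timp genes, Mmp2, Mmp3, Mmp9, Mmp14, Adam10, Adam17, Adamts1, Adamts4, Adamts5 and Adamts9, and each companion list gives at most 4 called genes, those of smallest p, except for items that are not reported here. Values of further members were added after they were seen. Nothing labels a batch. Alternatives comprised scaling by RLE, upper quartile or library size, 2 filters, a replicate block, each library left out, limma-voom (limma 3.58.1), log2 FPKM with pseudocounts of 1 and 0.1, DESeq2 1.42.0 and other thresholds. RefSeq names matched all 64 members, and 40 had an upstream sequence.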

Additional observations from a re-analysis of the deposited data

How the results depend on the processing

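The 4 members called higher and 4 called lower were all called with RLE factors, upper-quartile factors, library size alone, no filter, a minimum of 1 CPM in 3 libraries, limma-voom and DESeq2. Members called lower numbered 8 with library size alone, 8 at an adjusted p under 0.1 and 3 to 9 with a library left out; members called higher numbered 3 to 4 with a library left out. All genes called numbered 2835 as reported, 1552 to 3041 with a library left out (lowest without young 3, then 1557 without young 1) and 1255 at an adjusted p under 0.01. Companion genes called higher numbered 23 as reported, 15 and 13 on FPKM values (pseudocount 0.1, and pseudocount 1 with no filter), and 18 to 24 with a library left out; those called lower numbered 16 as reported, 9 at an adjusted p under 0.01, and 9 to 25 with a library left out.

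The old minus young difference in summed FPKM was -13.8 for Mmp, 61.3 for Timp, -8.74 for Adam, 23.7 for Adamts and -4.49 for Adamtsl genes. With a TMM-scaled library total it was -8.50 for Mmp, -3.53 for Adam and -1.66 for Adamtsl genes. Without the most abundant member it was 4.25 for Timp and reversed to -3.26 for Adamts genes. With a library left out it ranged from -19.4 to -10.7 (Mmp), 52.3 to 75.3 (Timp), -12.7 to -6.41 (Adam), 17.4 to 27.3 (Adamts) and -6.53 to -3.04 (Adamtsl). The cause was not tested.

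Same-numbered mice showed little pairing (correlation of deviations 0.0782, 0.0782 and 0.00675), and the numbers were not taken to pair the samples. With a replicate block 2734 genes and 10 members were called, 4 higher and 6 lower, with Adamts5 (-0.54, adjusted p = 0.0317) and Mmp11 gained. No called gene named here changed direction under any setting run. The 18 members not tested all had group means under 1 CPM, where depth is the limit.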
